A study of Mus musculus with 8 samples.

Results

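The Klr genes encode the lectin-like receptors of natural killer (NK) cells, and 26 of the 55450 rows of the deposited gene list carry a symbol that begins with Klr and a letter from a to k. The 4 Klr pseudogenes, whose symbols contain -ps, were left out, and the rule uses the symbols alone. All 26 lie on mouse chromosome 6, and their 126419 unique molecular identifiers (UMIs, tags that mark single RNA molecules) came from 80474 liver cells. The livers were from WT mice, in the study's methods C57BL/6 animals, analysed 1 library per mouse by droplet single-cell RNA sequencing. The control mice (n = 2) had normal diet and drinking water. The HFD+F+CCl4 mice (n = 3) had a high-fat diet, fructose solution and weekly intraperitoneal carbon tetrachloride, and the WD+F+CCl4 mice (n = 3) had a western diet with the same solution and injections. The 6 treated mice model nonalcoholic steatohepatitis (NASH) with fibrosis, and no group received a diet, fructose or CCl4 alone, so the parts of each treatment cannot be told apart. The sources used here state neither age nor sex.

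NK cells carry many Klr receptors at once, and the balance of inhibitory and activating ones sets whether a cell responds. The Klra group encodes the Ly49 receptors, most of which bind class I major histocompatibility molecules, while Klrd1 encodes CD94, which pairs with the products of Klrc1 and Klrc2, and Klrk1 encodes NKG2D, which binds stress-induced ligands. Activating members signal through adaptor proteins such as those of Tyrobp and Hcst, and inhibitory members recruit phosphatases. In the liver these receptors are best known from NK cells, resident innate lymphocytes and NKT cells, but 2 Ly49 genes, Klra17 and Klra2, are known from plasmacytoid dendritic cells (DCs) and from monocytes.

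In the GRCm38 annotation the members are spread over chromosome 6, with Klrg2 at chr6:38625693-38637242 and Klrg1 at chr6:122270596-122282882 apart from the rest. The Klrb1 genes begin with Klrb1a at chr6:128609227-128623533, and from Klre1 at chr6:129577905-129585827 to Klra1 at chr6:130363917-130386874 follow Klrd1, Klrk1, the Klrc and Klri genes and all Klra genes but Klra2. Klra2, at chr6:131219223-131247362, lies apart. RefSeq (GRCm38.p6) gave a promoter sequence for 23 of the 26 members; Klrd1, Klrg1 and Klri2 had none. The 250 bases before the start of the 5 Klra genes below are shown because their levels separated NK-like, plasmacytoid DC-like and monocyte-like cells although their promoters share a run of 15 bases, printed in capitals. All are on the minus strand and are read 5′ to 3′ towards the gene.
Klra4, chr6:130067272-130067521: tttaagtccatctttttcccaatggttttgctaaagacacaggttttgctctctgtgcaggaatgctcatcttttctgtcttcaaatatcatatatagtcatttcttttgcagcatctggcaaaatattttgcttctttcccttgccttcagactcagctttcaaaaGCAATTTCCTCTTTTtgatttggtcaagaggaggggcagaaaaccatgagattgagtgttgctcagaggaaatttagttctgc
Klra8, chr6:130129899-130130148: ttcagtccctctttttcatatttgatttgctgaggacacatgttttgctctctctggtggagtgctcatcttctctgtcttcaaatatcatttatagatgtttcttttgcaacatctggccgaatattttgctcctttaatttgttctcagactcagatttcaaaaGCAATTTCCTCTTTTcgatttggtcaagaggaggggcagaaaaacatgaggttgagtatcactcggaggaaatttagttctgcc
Klra9, chr6:130193113-130193362: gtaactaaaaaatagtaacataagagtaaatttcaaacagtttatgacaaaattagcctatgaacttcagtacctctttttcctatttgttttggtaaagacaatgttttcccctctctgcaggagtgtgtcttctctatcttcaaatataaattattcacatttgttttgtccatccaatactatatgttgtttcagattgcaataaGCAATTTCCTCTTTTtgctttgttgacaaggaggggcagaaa
Klra17, chr6:129876673-129876922: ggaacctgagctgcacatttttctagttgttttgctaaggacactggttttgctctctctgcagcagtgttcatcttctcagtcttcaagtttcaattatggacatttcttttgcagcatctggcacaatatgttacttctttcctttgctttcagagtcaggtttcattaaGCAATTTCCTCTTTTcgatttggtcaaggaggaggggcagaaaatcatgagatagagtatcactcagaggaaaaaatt
Klra2, chr6:131247363-131247612: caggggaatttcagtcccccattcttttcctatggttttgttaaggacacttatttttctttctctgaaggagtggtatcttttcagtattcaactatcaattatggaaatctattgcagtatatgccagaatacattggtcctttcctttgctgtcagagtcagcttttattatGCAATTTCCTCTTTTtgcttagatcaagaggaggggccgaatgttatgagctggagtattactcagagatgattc

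The run GCAATTTCCTCTTTT was picked because the promoters printed above share it. Searched on both strands, it occurred in 10 of 32851 promoter entries of this length (0.0304%), 2 of them outside the Klra genes. Of the 23 members with a promoter, 7 had it (Klra17, Klra2, Klra3, Klra4, Klra6, Klra8 and Klra9). The members printed above are among these 7 by choice, so the count is no measure of enrichment. The RefSeq table holds 2 entries for Klra8. Outside the run the sequences differed to various degrees. The promoters of Klra4 and Klra8 were 84.5% identical, those of Klra4 and Klra17 79.4%, those of Klra17 and Klra2 74.6% and those of Klra4 and Klra9 47.9%. The T-box motif TCACACC was in 0 of the 23 promoters against 3.33% of all promoters, the RUNX motif TGTGGTT in 3 (Klra1, Klre1 and Klrk1) against 4.40%, and the PU.1 motif GAGGAAG in 4 (Klrb1a, Klrb1c, Klre1 and Klrg2) against 10.6%, each on both strands. These are matches of letters, and binding was not measured.

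The 8 libraries held 6135827 to 64855024 UMIs, fewest in control replicate 2, and 80474 of 88581 barcodes passed the limits of more than 500 genes and less than 25% mitochondrial UMIs. Kept cells had a median of 992.5 to 4278 UMIs per mouse. Of the kept barcodes, 1467 had a barcode sequence that occurred in more than 1 library. Cells were clustered without the Klr genes, and clusters were named by fixed marker lists. Clusters with 4451 cells were closest to hepatocytes by the markers but scored too low for a name, and they are in none of the cell types below. They held 2217 of 10788 and 2185 of 4168 control cells, 0 to 26 cells of each NASH mouse, and 4.79% of all Klr UMIs. T and NK lymphocytes made up 40.6% and 21.8% of the kept cells of the controls and 5.47 to 15.5% in NASH, while monocytes and macrophages made up 1.36% and 1.25% in controls and 45.3 to 65.2% in NASH. The summed level of the 26 members over all kept cells was 1019 and 1020 CPM (UMIs of the members per 1000000 UMIs) in the controls. It was 171, 302 and 361 CPM in HFD+F+CCl4 and 276, 278 and 172 CPM in WD+F+CCl4. A level over all cells moves with the share of lymphocytes, so the results below are for named cell types, where CPM is the member's UMIs in the cells of a type in a mouse divided by all UMIs of those cells. The libraries tag the 3′ end of each transcript, so CPM carries no scaling for length.

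NK-like cells held 16% of all Klr UMIs with 1202 cells, and 99.8% of them had a UMI of at least 1 member. NKT-like cells held 14.0%, CD8 T-like cells 14.0%, type 2 DC-like cells 13% and macrophage-like cells 9.09%. The summed Klr level in NK-like cells was 7436 and 5614 CPM in the controls, 4243, 4697 and 4787 CPM in HFD+F+CCl4 and 4833, 3912 and 5008 CPM in WD+F+CCl4. The controls were above the NASH mice without overlap. In NKT-like cells, nearly all of which came from controls, it was 1467 and 1660 CPM. B cells, which are not known to use these receptors, carried 305 and 517 CPM of summed Klr in the controls and 12.8 to 93.8 CPM in NASH. The 5 T cell markers (Cd3d, Cd3e, Cd3g, Trac and Trbc2) summed to 642 and 696 CPM in control conventional DC-like cells and to 33.7 to 92.7 CPM in those of NASH mice. These values stand beside each DC and monocyte result below, and their part in those results was not tested.

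**Figure D1:**
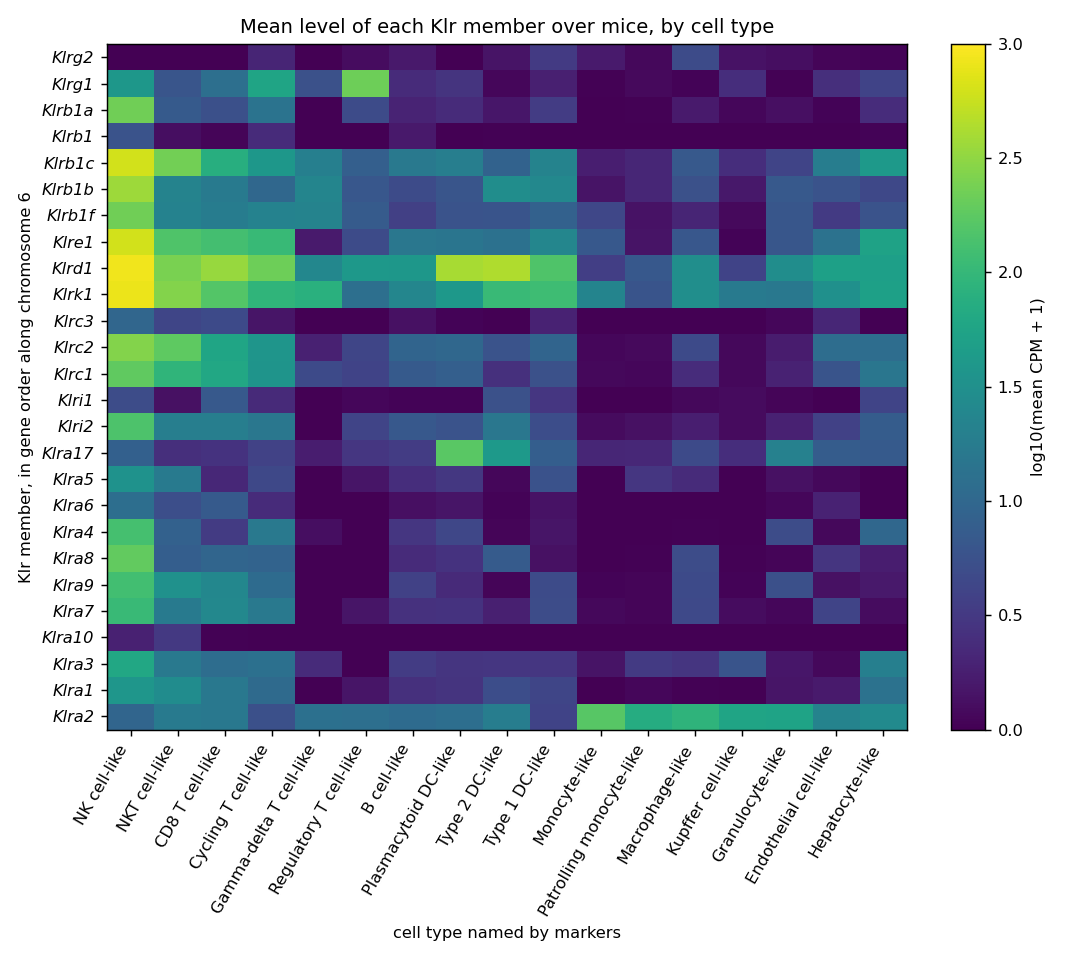
Mean CPM over mice of each Klr member (rows, in order along chromosome 6) in each cell type named by markers (columns), as log10(mean CPM + 1) on a colour scale; mice with under 10 cells of a type are left out. Most rows are brightest in NK-like cells, Klrg1 in regulatory T cell-like cells, Klra17 in plasmacytoid DC-like cells and Klra2 in monocyte-like cells, and Klrd1 is bright in NK-like and DC-like columns.

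The members with the highest levels in NK-like cells were the CD94 and NKG2D genes. Klrd1 was at 1225 and 983 CPM in the controls, 577, 881 and 767 CPM in HFD+F+CCl4 and 922, 591 and 885 CPM in WD+F+CCl4. Klrk1 was at 1092 and 905 CPM, 805, 673 and 767 CPM, and 766, 641 and 787 CPM in the same order of mice. Both controls were above all NASH mice for each gene, by a fitted log2 difference of -0.42 ± 0.23 (SE) for Klrd1 and -0.34 ± 0.20 for Klrk1, and neither passed the test. Klre1, whose product pairs with those of Klri1 and Klri2, was at 850 and 905 CPM in the controls, 359, 487 and 593 CPM in HFD+F+CCl4 and 696, 488 and 594 CPM in WD+F+CCl4. Klri2, a partner of Klre1, was at 213 and 129 CPM, 140, 135 and 177 CPM, and 120, 91.6 and 148 CPM, so the groups overlapped.

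The Klrb1 genes encode the NKR-P1 receptors, which bind C-type lectins of the Clec2 family. Klrb1c, the gene of the NK cell antigen NKR-P1C, was at 735 and 673 CPM in the controls, 653, 578 and 464 CPM in HFD+F+CCl4 and 573, 533 and 715 CPM in WD+F+CCl4. Klrb1a was at 151 and 129 CPM, 198, 251 and 299 CPM, and 235, 227 and 280 CPM, and all NASH mice were above both controls. Its fitted difference of 0.84 ± 0.26 log2 had an edgeR adjusted p of 0.0614. Klrb1b, an inhibitory member, was at 233 and 285 CPM in the controls, 545, 431 and 379 CPM in HFD+F+CCl4 and 238, 330 and 431 CPM in WD+F+CCl4. Klrb1f was at 248 and 129 CPM, 201, 269 and 278 CPM, and 217, 192 and 246 CPM. Neither of these separated the groups.

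The comparison of NASH with control NK-like cells asked whether the receptors of NK cells differed between the models and the controls. Of 26 members, 18 passed the filter on low counts, 6 were lower in NASH and 0 higher, where 2.01% of the 6162 genes tested were lower and 3.57% higher (edgeR quasi-likelihood test, adjusted p under 0.05). The median fitted difference of the 18 members was -0.52 log2, against 0.03 over all genes tested. The 6 were 4 Ly49 genes with Klrc1 and Klrg1.

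Klra8 (Ly49H, an activating receptor that recognises a viral protein) was at 437 and 362 CPM in the controls, 14.6, 162 and 125 CPM in HFD+F+CCl4 and 175, 80.1 and 166 CPM in WD+F+CCl4, a difference of -1.69 ± 0.41 log2 (edgeR adjusted p = 0.0176). Klra4 (Ly49D, also activating) was at 394 and 155 CPM, 14.6, 107 and 79.4 CPM, and 117, 38.9 and 140 CPM, a difference of -1.95 ± 0.41 (edgeR adjusted p = 0.00698). For both genes all NASH mice were below both controls, and HFD+F+CCl4 replicate 1 was the lowest. Klra9 (Ly49I, inhibitory) was at 283 and 285 CPM in the controls, 23.3, 33.7 and 91.7 CPM in HFD+F+CCl4 and 112, 87.0 and 53.0 CPM in WD+F+CCl4, a difference of -1.98 ± 0.33 (edgeR adjusted p = 0.00116). Klra5 (Ly49E, an inhibitory receptor known from fetal NK cells and liver-resident lymphocytes) was at 82.6 and 129 CPM, 5.83, 3.06 and 12.2 CPM, and 1.5, 11.4 and 15.1 CPM, a difference of -3.47 ± 0.49 (edgeR adjusted p = 0.000292). The lowest control was above the highest NASH mouse in each case, but the 129 CPM of Klra5 in control replicate 2 came from 1 cell (2.63% of its 38 NK-like cells, against 9.48% of those of control replicate 1). Klra4 was found in 10.5% of these 38 cells, at 25.9 CPM per UMI, and its 155 CPM there was close to the highest NASH value of 140 CPM. How many of all genes tested separated the groups without overlap was not counted, for these or for other members. Klra5 also passed the filter on low counts only through the controls, so the filter fixed its direction. With no filter it was also called.

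Klrc1 (NKG2A, the inhibitory partner of CD94) was at 377 and 233 CPM in the controls, 166, 141 and 131 CPM in HFD+F+CCl4 and 144, 126 and 148 CPM in WD+F+CCl4, a difference of -1.15 ± 0.22 log2 (edgeR adjusted p = 0.00402). Its activating counterpart Klrc2 (NKG2C) was at 562 and 181 CPM, 394, 288 and 254 CPM, and 224, 183 and 140 CPM, with overlap between the groups and an edgeR adjusted p of 0.122. Klrg1, an inhibitory receptor of mature NK cells and T cells that binds cadherins, was at 111 CPM in control replicate 1 and at 0 in control replicate 2, where 0 of 38656 UMIs allows up to 77.6 CPM. In NASH it was at 5.83 to 45.9 CPM, and the fitted difference of -1.54 ± 0.42 (edgeR adjusted p = 0.0363) therefore rested on control replicate 1.

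The other Ly49 genes did not pass the test. Klra7 (Ly49G) was at 178 and 25.9 CPM in the controls, 35.0, 76.5 and 168 CPM in HFD+F+CCl4 and 118, 121 and 129 CPM in WD+F+CCl4. Klra3 (Ly49C) was at 151 and 25.9 CPM, 26.2, 76.5 and 70.3 CPM, and 77.8, 50.4 and 18.9 CPM, and Klra1 (Ly49A) at 48.6 and 0 CPM, 20.4, 30.6 and 64.2 CPM, and 23.9, 54.9 and 49.2 CPM. Control replicate 2 contributed 38 NK-like cells with 25.9 CPM for 1 UMI, so its values for these genes are 1 UMI or none.

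All 6 results depended on control replicate 1, which had 464 of the 502 control NK-like cells. Without it 7 of all 7024 genes tested were called by edgeR, 0 members among them, and 4 members had an unadjusted p under 0.05, with differences of -3.69 for Klra5, -1.75 for Klra9, -1.25 for Klra8, -0.59 for Klra4, -0.35 for Klrc1 and 6.41 for Klrg1. The NK marker list itself (Ncr1, Eomes, Prf1, Gzma, S1pr5 and Cma1) summed to 7583 and 4915 CPM in the controls and to 834 to 4353 CPM in NASH. The 5 T cell markers summed to 1190 and 1552 CPM in the controls and 528 to 881 CPM in NASH, against 2517 to 5156 CPM in all T and NK lymphocytes. A UMI of a CD3 or T cell receptor gene was found in 77.9 to 93.8% of the NK-like cells of each mouse, 88.4% in control replicate 1. Ncr1, the gene of the NK receptor NKp46, was at 796 and 698 CPM in the controls and 410 to 614 CPM in NASH. The 8 macrophage markers summed to 25.1 and 77.6 CPM in the controls and 211 to 1405 CPM in NASH, the 7 hepatocyte markers to 1416 and 2302 CPM against 61.8 to 909 CPM, and the part of these in the Klr differences was not tested.

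**Figure D2:**
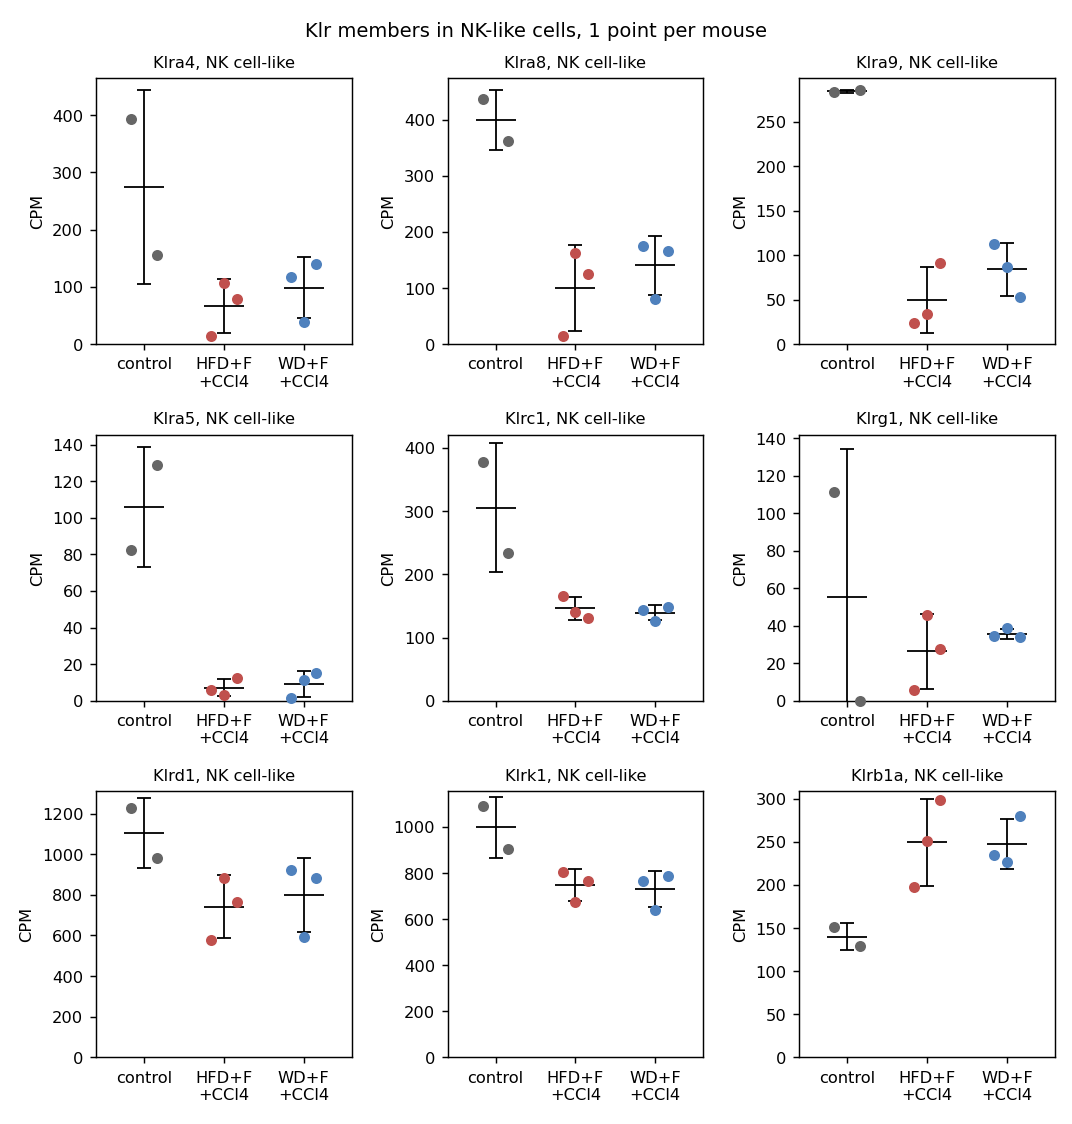
CPM of 9 Klr members in NK-like cells, 1 panel per member, with 1 point per mouse; horizontal bars and whiskers are the mean ± SD of each group (n = 2, 3 and 3). Klra4, Klra8, Klra9, Klra5 and Klrc1 lie higher in both controls than in all 6 NASH mice, Klrg1 rests on 1 control mouse, Klrd1 and Klrk1 differ less, and Klrb1a lies higher in all NASH mice.

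Within the NK-like cluster the members marked different subclusters, which were formed without the Klr genes. The subcluster with the mature NK genes Cma1, S1pr5 and Itgam had 251 cells, 234 of them from control replicate 1. It held the most Klra8 (895 CPM in that mouse), Klra4 (776 CPM), Klra9 (464 CPM) and Klrg1 (224 CPM), and little Klra5 (16.9 CPM). A 2nd control subcluster, with 210 of its 236 cells from control replicate 1 and with Itga1 and Cd3g among its leading genes, differed. It held Klra5 at 176 and 247 CPM and Klrc1 at 530 and 197 CPM in the controls. Klra4 was at 7.92 and 49.3 CPM there and Klra8 at 11.9 and 247 CPM, where control replicate 2 had 20 cells and its Klra5 UMIs came from 1 of them. By the fixed markers it was closer to T cells than to NK cells.

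Most NASH cells were in a subcluster of 393 cells led by Gzmc, Xcl1 and Tmem176b, with 6 control cells, which the markers did not name. In it Klra4 was at 0 to 6.72 CPM and Klra8 at 0 to 13.4 CPM in the 6 NASH mice, but Klrd1 was at 659 to 1001 CPM, Klrk1 at 755 to 934 CPM, Klrb1b at 345 to 679 CPM and Klrb1a at 252 to 332 CPM. A subcluster of 171 cells with cell cycle genes held NASH and control cells. There Klra8 was at 395 to 556 CPM and Klra4 at 232 to 569 CPM in the 5 NASH mice with at least 10 cells, above the 36.4 and 173 CPM of control replicate 1. That mouse had 15 of these cells and is the only control compared, since control replicate 2 had 9. In the subcluster led by heat shock genes, which was closest to macrophages by the markers, 87 of 92 cells were from HFD+F+CCl4 replicate 1, which held Klra4 at 0 and Klra8 at 8.62 CPM. The last subcluster, of 59 cells, carried monocyte genes.

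The split of cells over subclusters and the level within them bear on the same totals. In the 2 subclusters named NK-like (the mature and the cycling one, without HFD+F+CCl4 replicate 1, which had 3 such cells), 0 of 17 members were called by edgeR, with 56 of all 2115 genes tested, and 6 members had an unadjusted p under 0.05. There the differences were -0.90 ± 0.29 log2 for Klra4, -0.56 ± 0.27 for Klra8, -1.04 ± 0.33 for Klra9 and -1.04 ± 0.35 for Klrc1, and control replicate 2 had 14 cells. The mature subcluster gave 234 and 5 control cells and 1 to 4 cells of each NASH mouse fitted. The cycling one gave 15 and 9 control cells and 18 to 59 of each NASH mouse fitted. The groups thus differed in their mix of the 2 subclusters, and this fit cannot show a difference within like cells. Per cell, thinned to 1000 UMIs, a mean of 0.991 Klra members with a UMI was found in control replicate 1, 0.556 in control replicate 2 (18 cells deep enough) and 0.145 to 0.532 in NASH. The shares of NK-like cells with a Klra8 UMI after thinning were 23.2% in controls and 8.45% in NASH, against 0.477% and 0% in B cells (0 of 2911 cells in NASH). Before thinning they were 30.1% and 11.0%, with a median of 2230 and 2892 UMIs per cell, and 1920 and 1736 in B cells.

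Over all T and NK lymphocytes the question was whether either model changed the family in lymphocytes as a whole. In HFD+F+CCl4 against control, 22 members were tested, 1 was higher and 1 lower, where 3.47% of all genes tested were higher and 2.30% lower. In WD+F+CCl4 against control 0 were higher and 1 lower, where 5.56% of all genes were higher and 5.03% lower. Both comparisons share the control mice. The median differences of the members were -0.59 and -0.46 log2, with medians of 0.00 and -0.01 over all genes.

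Klra5 was the lower gene in both. It was at 28.1 and 26.7 CPM in the controls, 2.68, 0.766 and 0.735 CPM in HFD+F+CCl4 and 1.77, 2.00 and 1.38 CPM in WD+F+CCl4. The differences were -4.59 ± 0.44 log2 (edgeR adjusted p = 0.00223) and -3.85 ± 0.41 (edgeR adjusted p = 0.00243). Here too Klra5 passed the filter on low counts only through the controls. In the controls Klra5 was in NK-like cells and in NKT-like cells (33.8 and 29.5 CPM), and NKT-like cells numbered 2830 and 668 in the controls and 3 to 46 in the NASH mice. Without the NKT-like cluster the differences were -4.0 ± 0.53 (edgeR adjusted p = 0.00513) and -3.31 ± 0.49 (edgeR adjusted p = 0.00596), and without either control mouse they stayed past the threshold. Klra5 is 88.9% identical to Klra6 over the last 400 bases of their transcripts, and Klra6 was at 25.1 and 25.9 CPM in control NK-like cells and at 0 to 15 CPM in NASH.

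Klrg1 was the higher gene in HFD+F+CCl4. Over T and NK lymphocytes it was at 15.8 and 16 CPM in the controls, 53.7, 45.4 and 69.8 CPM in HFD+F+CCl4 and 21.5, 28.5 and 17.1 CPM in WD+F+CCl4. All HFD+F+CCl4 mice were above all others. The difference was 1.84 ± 0.28 log2 against control (edgeR adjusted p = 0.0100). Without control replicate 1 or 2 it was 1.95 or 1.77, with an edgeR adjusted p of 0.0843 or 0.0553. It fell to 0.93 ± 0.34 (edgeR adjusted p = 0.154) without the NKT-like cluster, where Klrg1 was at 4.41 and 16.1 CPM in the controls. By type, Klrg1 was highest in regulatory T cell-like cells, at 150 CPM in control replicate 1, 418, 228 and 330 CPM in HFD+F+CCl4 and 176, 151 and 78.4 CPM in WD+F+CCl4. Control replicate 2 had only 5 of these cells. In cycling T cells it was at 15.1 and 15.9 CPM, 180, 57.5 and 36.8 CPM, and 48.9, 53.5 and 30 CPM. After thinning, 10.9% of the regulatory T cell-like cells of control replicate 1 had a Klrg1 UMI. The shares were 29.6, 15.9 and 27.1% in HFD+F+CCl4 and 12.1, 9.72 and 7.50% in WD+F+CCl4. Over pooled cells they were 19.4% in NASH and 10.4% in controls, against 0.0687% and 0.110% of B cells. Before thinning the pooled shares were 31.9% and 17.2%.

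Between the models, WD+F+CCl4 against HFD+F+CCl4, 0 of 22 members were called by edgeR (0% of all genes), 1 had an unadjusted p under 0.05 and DESeq2 called 1. Both were Klrg1, at -1.22 ± 0.24 log2 in edgeR with an adjusted p of 0.989. The activating Ly49 genes Klra4 and Klra8 differed by 1.42 ± 0.70 and 1.06 ± 0.47 log2, neither past the threshold.

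NKT-like cells could be described in the controls only, with 2830 and 668 cells. Klrd1 was at 299 and 334 CPM there, Klrk1 at 265 and 254 CPM, Klrb1c at 244 and 282 CPM, Klrc2 at 157 and 118 CPM, Klre1 at 138 and 176 CPM and Klrc1 at 122 and 120 CPM. Both control mice had the 6 genes at similar levels. Of the Ly49 genes Klra1 was at 40.2 and 18.8 CPM and Klra9 at 28.0 and 41.2 CPM, and gamma-delta T cell-like cells had mainly Klrk1, at 66.6 and 209 CPM in controls and 27.8 to 80.8 CPM in NASH.

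In CD8 T-like cells 20 members were tested, 1 was higher and 0 lower, where 4.51% of all genes tested were higher and 3.55% lower. Klre1 was at 23.7 and 90.4 CPM in the controls, 108, 144 and 291 CPM in HFD+F+CCl4 and 143, 81.7 and 118 CPM in WD+F+CCl4, a difference of 2.21 ± 0.55 log2 (edgeR adjusted p = 0.0330). WD+F+CCl4 replicate 2 was below control replicate 2, so the groups overlapped. Without control replicate 1 the difference was 1.06 ± 0.93, and 0 of 12582 genes were called by edgeR, with 0 members at an unadjusted p under 0.05. Klrd1 was at 195 and 347 CPM, 221, 602 and 669 CPM, and 269, 186 and 276 CPM, and Klrk1 at 57.8 and 121 CPM, 287, 146 and 235 CPM, and 205, 99.3 and 85.2 CPM. Neither passed the test.

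No cluster was named for conventional CD4 T cells. When all T cell-like cells were subclustered, a subcluster of 579 cells with Cd4 and Gzmk among its leading genes was named CD4 T cell-like. Of its cells 523 were from WD+F+CCl4 replicate 3, so the CD8 T-like cells of that mouse include CD4 T cell-like ones. Most CD8 T-like cells of control replicate 1 lay in another cluster than most of those of the NASH mice. The cluster with the naive T cell genes Tcf7, Lef1 and Ccr7 held 604 of the 739 cells of control replicate 1, 16 of the 61 of control replicate 2 and 0 to 6 of each NASH mouse, while the cluster with Gzmk, Tox, Lag3 and Pdcd1 held 104 and 37 control cells and 267 to 1160 cells of each NASH mouse. Within that cluster 0 of 18 members were called by edgeR, with 8 of all 10716 genes tested, 4 members had an unadjusted p under 0.05, and Klre1 differed by 1.57 ± 0.51 (edgeR adjusted p = 0.290). Cells were also chosen one by one from all T and NK lymphocytes, with the NKT-like and NK-like clusters included. They had UMIs of a CD3 or T cell receptor gene and of Cd8a or Cd8b1. Of all 10846 genes tested in this wider choice of cells, 670 were called in either direction. Klre1 was not called there, and 7 of 19 members were lower. These were Klrb1a, Klrb1b, Klrb1c, Klrb1f, Klra5, Klra8 and Klra9, by -5.85 ± 0.72 (Klra5) to -1.79 ± 0.45 log2 (Klrb1f).

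In conventional DC-like cells Klrd1 and Klrk1 were the main members, and in plasmacytoid DC-like cells Klrd1 and Klra17. In type 2 DC-like cells, which present antigen mainly to CD4 T cells, Klrd1 was at 191 and 116 CPM in the controls, 220, 697 and 512 CPM in HFD+F+CCl4 and 648, 577 and 534 CPM in WD+F+CCl4. All NASH mice were above both controls, with HFD+F+CCl4 replicate 1 only just so. In type 1 DC-like cells, which cross-present to CD8 T cells, it was at 135 and 162 CPM, 76.3, 159 and 106 CPM, and 224, 223 and 113 CPM, with the groups mixed. In plasmacytoid DC-like cells, known for type I interferon, it was at 292 and 211 CPM, 340, 614 and 429 CPM, and 376, 465 and 491 CPM, again higher in all NASH mice, which was not tested. Over all mice the mean level of Klrd1 was 854 CPM in NK-like, 437 CPM in type 2 DC-like, 402 CPM in plasmacytoid DC-like and 346 CPM in CD8 T-like cells, and the last 3 overlapped mouse by mouse.

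In NASH type 2 and plasmacytoid DC-like cells Klrd1 came with few UMIs of Klre1 and Klrc1. In NASH type 2 DC-like cells there were 189 Klre1 UMIs and 5 Klrc1 UMIs for 11287 Klrd1 UMIs, ratios of 0.0167 and 0.000443. In NASH plasmacytoid DC-like cells the Klre1 ratio was 0.0115. In NK-like cells it was 0.700 in controls and 0.711 in NASH, and in the B cells of controls 0.516. In control DCs it was higher, at 0.0857 in type 2 and 0.106 in plasmacytoid DC-like cells. Type 1 DC-like cells had 0.235 in controls and 0.120 in NASH. For Klrk1 the ratio to Klrd1 was 0.957 and 0.836 in control and NASH type 1 DC-like cells. It was 0.586 and 0.172 in type 2 DC-like cells and 0.892 and 0.947 in NK-like cells. What sets these ratios was not tested. In type 2 DC-like cells Ncr1 was at 2.94 and 23.3 CPM in the controls and 0 to 0.500 CPM in NASH, and Nkg7, a gene of cytotoxic granules, at 88.1 and 256 CPM and 3.99 to 10.7 CPM. After thinning to 1000 UMIs, 37.9% of NASH and 11.4% of control type 2 DC-like cells had a Klrd1 UMI, against 1.24% and 4.18% of B cells. Before thinning the shares were 72.5% and 31.3%, at a median of 5278 and 3729 UMIs.

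Klra17 (Ly49Q) was mainly a gene of plasmacytoid DC-like cells. There it was at 147 and 140 CPM in the controls, 170, 176 and 229 CPM in HFD+F+CCl4 and 145, 154 and 187 CPM in WD+F+CCl4, with overlapping groups. In type 2 DC-like cells it was at 20.6 and 23.3 CPM, 14.2, 52.5 and 37.7 CPM, and 56.6, 60 and 52.7 CPM. In type 1 DC-like cells its mean was 6.81 CPM. After thinning, 15.1% of control and 15% of NASH plasmacytoid DC-like cells had a Klra17 UMI, against 0.147% and 0.0687% of B cells.

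Klrk1 (NKG2D) was at like levels in both conventional types, at 103 and 140 CPM in control and 88.6 to 119 CPM in NASH type 2 DC-like cells and at 142 and 104 CPM in control and 93.5 to 140 CPM in NASH type 1 DC-like cells. In B cells it was at 56.1 and 76.5 CPM in controls and 0 to 15.5 CPM in NASH. Klrb1b was at 14.8 to 54.7 CPM in type 1 DC-like cells and at 0 to 45.6 CPM in type 2 DC-like cells.

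Type 1 and type 2 DC-like cells together were tested as conventional DC-like cells. Of 15 members tested, 2 were higher and 6 lower in NASH, where 4.88% of the 11385 genes tested were higher and 6.14% lower. Among the lower ones, at least Klrc1, Klrc2, Klra5 and Klra9 passed the filter on low counts only through the control mice. The filter therefore fixed their direction, and their count is no result about the family. With no filter they were also called. The median of the members was -0.23 log2 and that of all genes 0.00. Klrd1 was at 147 and 156 CPM in the controls, 164, 532 and 408 CPM in HFD+F+CCl4 and 583, 542 and 406 CPM in WD+F+CCl4, a difference of 1.58 ± 0.40 log2 (edgeR adjusted p = 0.0297). Klra17 was at 7.87 and 10.8 CPM, 8.67, 38.9 and 28.8 CPM, and 51.3, 54.5 and 37.6 CPM, a difference of 2.13 ± 0.56 (edgeR adjusted p = 0.0326). HFD+F+CCl4 replicate 1 lay at or near the controls for both.

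The mix of DC types differed, with type 1 DC-like cells making 159 of 211 and 204 of 235 conventional DC-like cells in the controls and type 2 DC-like cells 125 of 177 to 908 of 980 in the NASH mice. Within type 2 DC-like cells alone, with 52 and 31 control cells, the differences were 1.70 ± 0.46 for Klrd1 (edgeR adjusted p = 0.0689) and 1.19 ± 0.62 for Klra17 (edgeR adjusted p = 0.343). Within type 1 DC-like cells Klrd1 differed by 0.04 (edgeR adjusted p = 0.956). Without control replicate 1 or 2 the edgeR adjusted p of Klrd1 was 0.201 or 0.158 and that of Klra17 0.350 or 0.115, with differences of 1.64 and 1.58 log2 for Klrd1 and 1.94 and 2.23 log2 for Klra17.

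The 6 lower members of conventional DC-like cells were genes of NK and T cells. Klrb1c was at 32.7 and 67.4 CPM in the controls and 0 to 4.51 CPM in NASH (-4.20 ± 0.61 log2, edgeR adjusted p = 0.00180), and Klrc2 was at 20.6 and 16.2 CPM and 0.870 to 2.54 CPM (-3.83 ± 0.45). Klrc1 was at 14.5 and 5.39 CPM and 0 to 1.38 CPM, Klre1 at 28.5 and 35.0 CPM and 7.02 to 15.4 CPM, Klra5 at 7.27 and 10.8 CPM and 0.200 to 2.89 CPM, and Klra9 at 4.24 and 10.8 CPM and 0 to 1.97 CPM. All 6 were also higher in control than in NASH B cells, for example Klrb1c at 43.2 and 62.0 CPM against 0 to 6.72 CPM and Klrc2 at 23.7 and 33.1 CPM against 0 to 3.87 CPM. Klrd1 and Klrk1 in B cells went the same way, and Klrd1 in conventional DC-like cells the opposite way. Without control replicate 1 only Klrb1c was called, at -4.65.

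**Figure D3:**
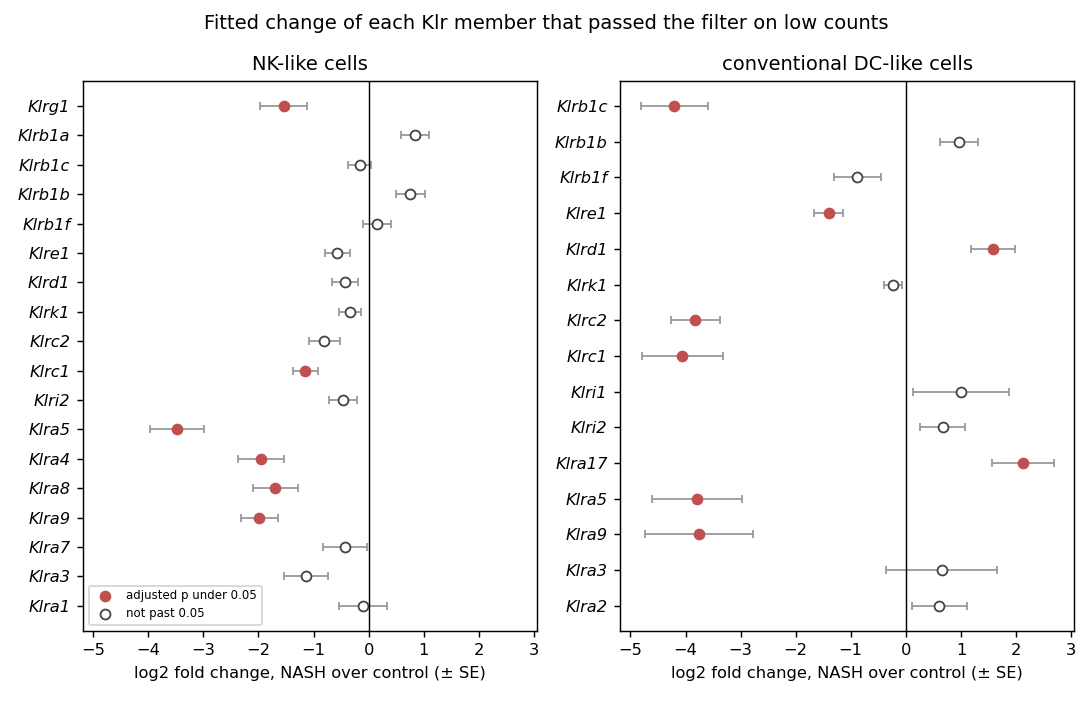
Fitted log2 fold change (NASH over control, points, with SE as whiskers) of each Klr member that passed the filter on low counts, in NK-like cells (18 members) and conventional DC-like cells (15 members), from edgeR's quasi-likelihood fit over all genes. Red points had an adjusted p under 0.05, 6 of them in NK-like cells, all below 0, and 8 in conventional DC-like cells, of which Klrd1 and Klra17 lie above 0.

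Klra2 (Ly49B) was the member of the monocytic cells. In monocyte-like cells it was at 227 and 388 CPM in the controls, 115, 113 and 114 CPM in HFD+F+CCl4 and 130, 96.7 and 127 CPM in WD+F+CCl4. In macrophage-like cells it was at 172 CPM in both controls, 46.9, 53.7 and 81.5 CPM in HFD+F+CCl4 and 45.1, 61.4 and 69.0 CPM in WD+F+CCl4. In patrolling monocyte-like cells it was at 191 CPM in control replicate 1 and 40.8 to 62.1 CPM in NASH. Every control value was above every NASH value of the same type. The controls had 65 and 22 macrophage-like cells, and control replicate 1 had 30 patrolling monocyte-like cells. Of the macrophage-like cells, 51 and 17 were in the cluster led by Cxcl9 and Ccl24. That cluster held 119 to 1191 of the 2242 to 3551 macrophage-like cells of each NASH mouse. The part of this mix of clusters in the Klra2 levels was not tested. Granulocyte-like cells had Klra2 at 42.3 and 32.0 CPM in controls and 51.3 to 65.8 CPM in NASH, and Kupffer-like cells, counted in 5 NASH mice, at 19.8 to 80.3 CPM.

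In the test over monocyte and macrophage-like cells, the cells whose share was largest in NASH, 12 members passed the filter, 0 were higher and 4 lower, where 0.689% of the 15825 genes tested were higher and 1.32% lower. The median of the members was -1.43 log2 and that of all genes 0.26. Klra2 was at 188 and 256 CPM in the controls and 55.1 to 78.2 CPM in NASH, a difference of -1.52 ± 0.22 (edgeR adjusted p = 0.0133). In monocyte-like cells alone it was -1.05 ± 0.23 (edgeR adjusted p = 0.0372). Without control replicate 1 or 2 it was -1.56 or -1.46, with an edgeR adjusted p of 0.259 or 0.0695. The controls had 147 and 52 such cells, against 5141 to 7289 in each NASH mouse. In B cells Klra2 was at 4.12 and 8.27 CPM in the controls and 2.57 to 22.4 CPM in NASH.

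The other lower members of these cells were Klrc2, Klre1 and Klrk1, which are lymphocyte genes. Klrk1 was at 41.0 and 128 CPM in the controls and 3.55 to 14.0 CPM in NASH, Klre1 at 8.54 and 28.4 CPM and 0.436 to 1.16 CPM, and Klrc2 at 17.1 and 0 CPM and 0.135 to 0.503 CPM. The 0 of control replicate 2 allows up to 42.7 CPM, and without control replicate 1 the difference of Klrc2 turned from -5.49 to 5.91. Klre1 and Klrk1 were no longer called by edgeR without either control, at adjusted p of 0.231 and 0.231 without replicate 1 and 0.0906 and 0.145 without replicate 2. The 5 T cell markers summed to 142 and 284 CPM in control and 7.76 to 18.1 CPM in NASH monocyte and macrophage-like cells, and the monocyte markers to 6865 and 8062 CPM against 1217 to 8182 CPM. Their part in the result was not tested.

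**Figure D4:**
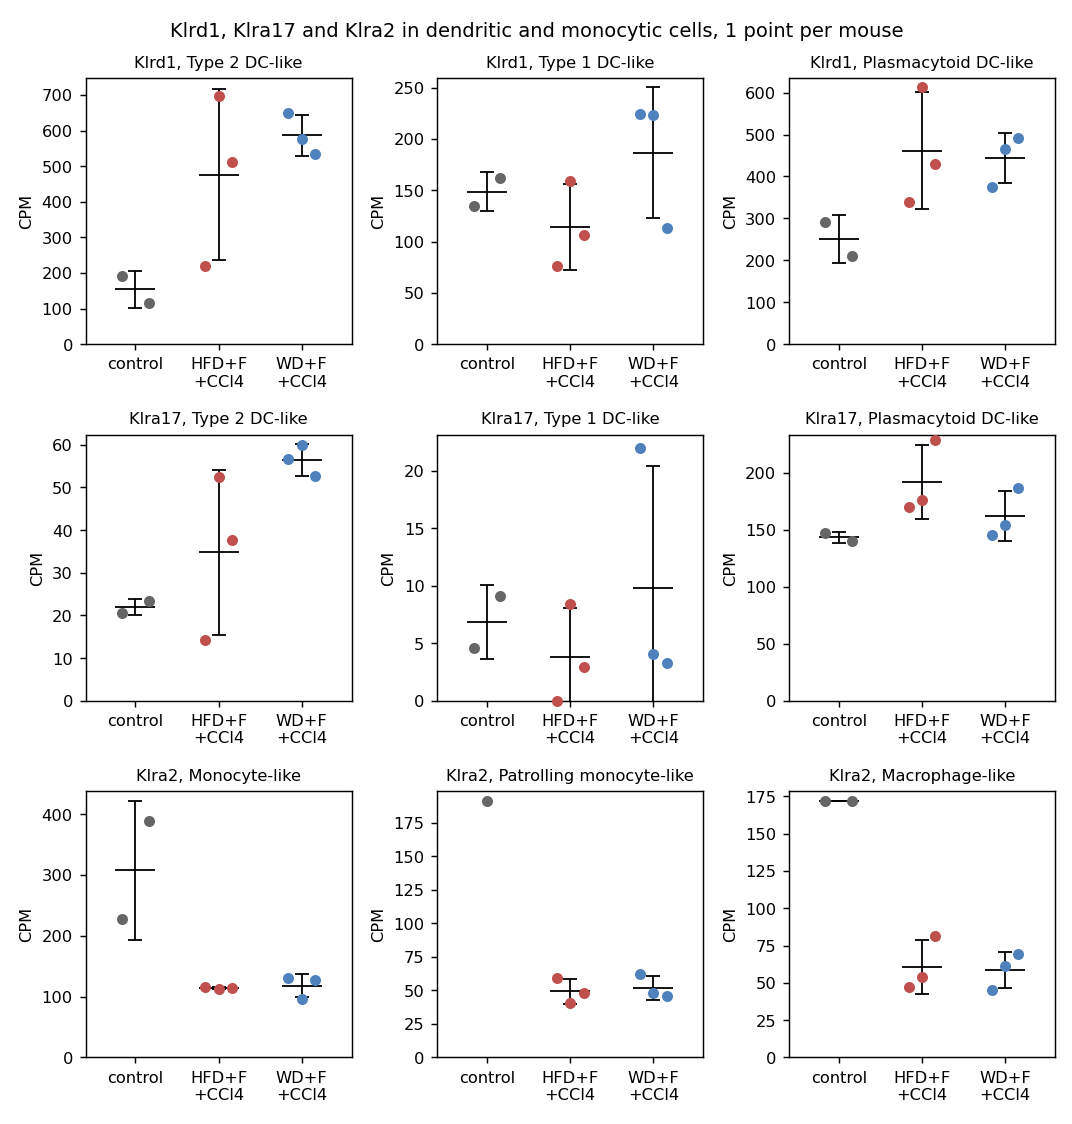
CPM of Klrd1 and Klra17 in 3 DC types and of Klra2 in 3 monocytic types, 1 point per mouse, with the mean ± SD of each group as bars and whiskers; groups with 1 mouse of at least 10 cells have a point only. Klrd1 lies higher in all NASH mice in type 2 DC-like and plasmacytoid DC-like cells but not in type 1 DC-like cells, and Klra2 lies lower in all NASH mice in each monocytic type.

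The remaining 6 members were low in every named type. Klra6 had its highest mean in NK-like cells, at 11.2 CPM, as had Klrc3 at 8.77 CPM and Klrb1 at 4.83 CPM. Klri1 reached 5.82 CPM in CD8 T-like cells and Klrg2 3.88 CPM in macrophage-like cells. Klra10 was at 4.05 CPM or less in NK-like cells of each mouse, and its highest mean, 2.16 CPM in NKT-like cells, rested mostly on 1 of 46 cells of HFD+F+CCl4 replicate 2. Where the transcripts share sequence, the counts of near-identical genes are uncertain. Klra9 and Klra3 are 98.2% identical over their last 400 bases, Klra1 and Klra4 84.9%, and 34.6% of the 100-base windows of Klrc1 and 12.6% of those of Klra10 also occur in other Klr transcripts.

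The other genes of the pathway were counted from lists of adaptors and signalling genes (17), other NK receptors (10, of which 9 are in the gene list), ligands (19, of which 16), transcription factors (10) and effectors (6). In NK-like cells 0 adaptors were higher and 1 of 17 was lower, namely Sh2d1a, the adaptor SAP (-1.56 ± 0.37 log2, edgeR adjusted p = 0.0152), with a list median of -0.04. Of all genes tested in these cells, 3.57% were higher and 2.01% lower. No other NK receptor (0 of 7 tested, 1 with an unadjusted p under 0.05, median 0.07) and no ligand (0 of 5, 1 with an unadjusted p under 0.05, median -0.03) was called by edgeR. Of 7 transcription factors Tox was higher (1.53 ± 0.33) and Eomes, which drives mature NK cells, lower (-1.55 ± 0.34), and of 6 effectors the chemokine gene Xcl1 was higher (1.74 ± 0.29) and Gzma, Prf1 and Ccl5 lower, Gzma by -1.59 ± 0.39. The medians of the last 2 lists were -0.43 and -0.99, against 0.03 over all genes. Eomes, Gzma and Prf1 are also in the NK marker list that named the cluster.

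In conventional DC-like cells 6 of 17 adaptors were higher and 5 lower (median 0.21), where 4.88% of all genes tested were higher and 6.14% lower. The higher adaptors were Tyrobp, Fcer1g, Syk, Ptpn6, Grb2 and Sh2d1b1, and the lower ones Zap70, Lat, Sh2d1a, Sh2d2a and Hcst, which T and NK cells use, Zap70 by -4.33 ± 0.31 log2. The 8 macrophage markers summed to 317 and 283 CPM in these cells in the controls and 849 to 1420 CPM in NASH, and their part in the higher adaptors was not tested. Of 8 other NK receptors 1 was higher and 4 lower (median -1.42), of 9 transcription factors 1 and 1 (median -0.53), of 6 effectors 0 and 2 (median -2.29) and of 7 ligands 0 and 0 by edgeR, none at an unadjusted p under 0.05 (median -0.18), with a median of 0.00 over all genes. Tyrobp, the adaptor that activating Ly49 receptors and CD94 with NKG2C use, was higher by 1.00 ± 0.23, and Hcst, the adaptor of NKG2D, lower by -1.61 ± 0.22.

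Over T and NK lymphocytes 1 adaptor was higher and 0 lower in HFD+F+CCl4 and 4 and 1 in WD+F+CCl4, with 2 and 2, and 4 and 3, of 9 other NK receptors. Of all genes tested in these cells, 3.47% were higher and 2.30% lower in HFD+F+CCl4, and 5.56% and 5.03% in WD+F+CCl4. Of 9 ligands tested 0 were called by edgeR in HFD+F+CCl4 (5 at an unadjusted p under 0.05) and 1 was lower in WD+F+CCl4 (Cdh2), of 10 transcription factors 3 and 0, and 2 and 3 were called, and of 6 effectors 0 in either by edgeR (0 and 2 at an unadjusted p under 0.05). Macrophage markers in these lymphocytes summed to 68.1 and 118 CPM in the controls and 1028 to 2342 CPM in NASH, and the higher adaptors, among them Tyrobp and Fcer1g, are also genes of macrophages. In CD8 T-like cells 5 adaptors, 3 other NK receptors, 2 transcription factors and 1 effector were higher, where 4.51% of all genes tested were. The macrophage markers summed to 76.1 and 136 CPM in CD8 T-like cells of the controls and 1271 to 3189 CPM in NASH, the hepatocyte markers to 1126 and 1190 CPM and 38.8 to 891 CPM, and their part in these counts and in Klre1 was not tested. In monocyte and macrophage-like cells 1 of 17 adaptors was higher and 2 were lower, as were 1 of 7 other NK receptors and 1 of 6 effectors. Of all genes tested there, 0.689% were higher and 1.32% lower. In WD+F+CCl4 against HFD+F+CCl4 no gene of the 5 lists was called by edgeR, and 0 to 1 in each list had an unadjusted p under 0.05.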

How the data were processed

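Livers of 8 mice (3 of each NASH model and 2 controls) were digested with enzymes and captured with a droplet 3′ kit, 1 library per mouse. The authors deposited 1 matrix of UMI counts per gene and barcode, not normalized, whose header names Cell Ranger 4.0.0. The submitters' processing notes list the builds GRCm38, mm10 and GRCh38; the annotation release was not given in the sources used here. A barcode's suffix gave its mouse. Barcodes with more than 500 genes and less than 25% mitochondrial UMIs were kept. Cells were clustered with leidenalg 0.10.2 (2000 variable genes, 30 principal components, 20 neighbours, resolution 0.8, NK subclusters 0.5) without Klr and mitochondrial genes, and clusters were named by fixed marker lists. Counts were then summed per mouse and cell type with at least 10 cells, and CPM values taken from the sums. Sums were tested across mice with edgeR 4.0.16 (TMM scaling, filter on low counts, quasi-likelihood test over all genes passing the filter, Benjamini-Hochberg adjustment), and a gene was called at an adjusted p under 0.05. All 8 mice entered each fit with 3 groups, and NASH against control was the mean of the differences of the 2 models from control. The fitting step was tested on simulated data.

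The members, marker lists and pathway lists were chosen with earlier results of these data known. Members with a mean of at least 20 CPM in a type were given by mouse, and the others by range or mean. Shares of cells with a UMI were thinned to 1000 UMIs per cell, which left out 5422 cells; values at 0 allow 3 counts, and such limits cover counting error only. DESeq2 1.42.0, other filters, doublet removal by Scrublet rank (scanpy 1.11.5, off in the main analysis), other cell sets and each mouse left out were tried as alternatives. Near-identical Klr transcripts can share reads. Sequences came from RefSeq (GRCm38.p6) and transcripts from GENCODE on GRCm38.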

Additional observations from a re-analysis of the deposited data

Results flagged for a closer look

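The same contrast gave opposite directions for Klrd1 in different cells. In NK-like cells its fitted difference between NASH and control was -0.42 log2 and all 6 NASH mice were below both controls, while in conventional DC-like cells it was 1.58 and all 6 were above both controls. Klrd1 was flagged because the groups did not overlap in either set, so the lack of overlap is no further support. The difference in NK-like cells did not pass the test (edgeR adjusted p = 0.346). In neither type 1 nor type 2 DC-like cells alone was Klrd1 called, and the mix of these types differed between the groups. Whether the difference in NK-like cells differed from that in conventional DC-like cells was not tested.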

How the results depend on the processing

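The 22 results for single members were refitted under 364 combinations with an alternative; 290 kept their direction and side of the threshold, 72 were no longer past it and 2 reversed, Klrg1 in NK-like cells (6.41) and Klrc2 in monocyte and macrophage-like cells (5.91), both without control replicate 1; with each mouse left out in turn they ranged from -1.88 to 6.41 and from -5.91 to 5.91. The cause of these changes was not tested. Refits in which a member fell under the filter on low counts or had no adjusted p are not among the 364. For example, Klra9 in conventional DC-like cells had 11 refits where 18 alternatives were run. Of the counts of called members, that of lymphocytes in HFD+F+CCl4 against control (2) became 9 with no filter, 4 with DESeq2, 4 with only the groups compared, and 1 to 4 with a mouse left out. In WD+F+CCl4 against control (1) it became 9 with no filter, 2 with DESeq2, 2 with more than 1000 genes per cell, 3 without the NKT-like cluster and 1 to 3 with a mouse left out. Between the models (0) it became 4 with no filter and 1 with DESeq2, and was 0 to 0 with a mouse left out. In NK-like cells (6) it became 3 with DESeq2, 0 in the named subclusters and 0 to 8 with a mouse left out. In CD8 T-like cells (1) it became 5 with no filter, 2 with DESeq2, 7 for cells chosen one by one, 0 in the single cluster, which was added after seeing the data, and 0 to 2 with a mouse left out. In conventional DC-like cells (8) it became 1 in type 2 alone, 1 in type 1 alone and 1 to 9 with a mouse left out. In monocyte and macrophage-like cells (4) it became 2 in monocyte-like cells alone and 0 to 4 with a mouse left out. Same-numbered mice did not deviate together (correlations of -0.261 to 0.0871), so the replicate number is no pairing; with the replicate block the counts were 2 in WD+F+CCl4 lymphocytes, 2 in NK-like, 1 in CD8 T-like (Klrc2 in place of Klre1), 3 in conventional DC-like and 0 in monocyte and macrophage-like cells. Sets with under 10 cells in control replicate 2 were not run: more than 1000 genes for NK-like, CD8 T-like and monocyte and macrophage-like cells, and NK-like cells chosen one by one. With 2 control mice, and 38 NK-like and 31 type 2 DC-like cells in control replicate 2, depth limits every control value of that mouse.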

Other observations

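Outside the 26 members, the pseudogene Klra13-ps had 401 UMIs in NK-like cells. It was at 257 and 51.7 CPM in the controls, 8.75, 45.9 and 61.1 CPM in HFD+F+CCl4 and 34.4, 16 and 53.0 CPM in WD+F+CCl4. Klra7 shares 7.64% of its 100-base windows with this pseudogene.

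A cluster of 162 cells led by Fcrl5, Negr1 and Itgad, all from NASH mice, carried both myeloid Ly49 genes. Klra17 was at 193, 78.3, 177 and 254 CPM and Klra2 at 156, 329, 182 and 216 CPM in the 4 mice with at least 10 of its cells (HFD+F+CCl4 replicates 2 and 3 and WD+F+CCl4 replicates 2 and 3). Klra17 is itself among the genes that lead the cluster, although it was not used to form it.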
